A study of Mus musculus with 15 samples.

Results

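The genes Fam129a, Sh3bgrl, Plekhb2, Gtf2i and Arhgap15 were followed in regulatory T cells (Tregs), the Foxp3-positive T cells that restrain immune responses. They are 5 of the 45706 genes counted and of the 18423 genes with enough reads to be tested. They were chosen on these same libraries, because each differed between dDC and ctr Tregs in the average over 3 tissues and because none has a settled role in Tregs. All differences between dDC and ctr given for them are therefore descriptions without a test. Fam129a, Sh3bgrl and Plekhb2 were higher in dDC Tregs, by between 1.65-fold and 1.71-fold on average, whereas Gtf2i and Arhgap15 were lower, at 0.579 and 0.620 of the ctr level.

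The mice were adult C57BL/6 animals that all carried a Foxp3 reporter, by which the Tregs were sorted. Those of the dDC groups belonged to the line named RelB-dDC, a name taken here to mean that dendritic cells lack RelB, which belongs to the NF-kappaB family of transcription factors. The driver of that deletion is not given in the sources used here, and the ctr animals were littermates. There were 3 dDC and 3 ctr libraries from spleen, 2 dDC and 3 ctr libraries from thymus, and 2 dDC and 2 ctr libraries from the peritoneal cavity (PEC). The labels do not say whether each library came from a separate animal, so p-values measure the spread between these libraries, which may be technical.

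Total counts lay between 15714288 and 24332045 per library. Foxp3 lay between 178.5 and 326.6 CPM (the count of a gene relative to its library's total, scaled with TMM factors), and all 7 Treg markers and 6 T cell markers had counts in each of the 15 libraries. By that reading of the name RelB is not deleted in the sorted cells themselves, so its count in Tregs does not check the genotype labels. Xist RNA, made from the inactive X chromosome of females, was at most 0.919 CPM in any library, which matters for the X-linked gene Sh3bgrl. The Y-linked genes Ddx3y, Eif2s3y, Kdm5d and Uty had counts in all 15 libraries, Ddx3y at 191.5 to 321.9 CPM. That is the pattern of male mice in every library. Peritoneal ctr replicate 2 stood apart in macrophage markers, with a sum of 1607 CPM over 9 genes, against 58.2 CPM in peritoneal ctr replicate 1. In bulk RNA, fewer cells that express a gene and less RNA per cell cannot be told apart.

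The 5 proteins belong to different parts of the cell. Fam129a encodes Niban, a cytosolic protein whose RNA is known from human and rodent cell lines to rise under stress of the endoplasmic reticulum. Sh3bgrl encodes a small protein with the fold of thioredoxin, and Plekhb2 encodes evectin-2, which binds phosphatidylserine on recycling endosomes and acts in transport from there to the Golgi apparatus. Gtf2i encodes TFII-I, a transcription factor that binds initiator elements and E-boxes, answers to signals from antigen receptors and lies in the region that is lost in Williams syndrome in humans. Arhgap15 encodes a GTPase-activating protein that switches off Rac, the small GTPase that drives actin assembly at the cell edge.

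The sequences just upstream of 4 of the genes are shown so that the promoters of genes that moved together between dDC and ctr can be read side by side. They are from RefSeq promoter windows (build GRCm38.p6, which has the coordinates of mm10), limited to the bases before the deposited start of the gene and written 5′ to 3′ on the strand of the gene. Capitals mark matches to a searched motif. The sequences cover chrX:109095157-109095364 (plus strand) for Sh3bgrl, chr1:34849709-34849958 (plus strand) for Plekhb2, chr5:134314761-134315010 (minus strand) for Gtf2i and chr2:43748574-43748823 (plus strand) for Arhgap15.
Sh3bgrl: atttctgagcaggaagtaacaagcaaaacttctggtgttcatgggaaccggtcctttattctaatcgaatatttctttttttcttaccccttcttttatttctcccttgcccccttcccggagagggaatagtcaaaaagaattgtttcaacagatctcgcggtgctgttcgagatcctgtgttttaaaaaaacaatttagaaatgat
Plekhb2: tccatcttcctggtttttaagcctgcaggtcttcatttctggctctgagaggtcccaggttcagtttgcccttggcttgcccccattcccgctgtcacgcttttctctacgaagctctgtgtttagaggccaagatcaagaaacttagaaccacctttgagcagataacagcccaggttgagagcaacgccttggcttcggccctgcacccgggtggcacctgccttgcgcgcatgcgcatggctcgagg
Gtf2i: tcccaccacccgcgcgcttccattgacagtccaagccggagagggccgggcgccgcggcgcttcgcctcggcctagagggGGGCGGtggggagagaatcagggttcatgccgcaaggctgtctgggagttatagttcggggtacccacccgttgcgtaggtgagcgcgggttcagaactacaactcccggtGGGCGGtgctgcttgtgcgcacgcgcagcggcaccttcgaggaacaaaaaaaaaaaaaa
Arhgap15: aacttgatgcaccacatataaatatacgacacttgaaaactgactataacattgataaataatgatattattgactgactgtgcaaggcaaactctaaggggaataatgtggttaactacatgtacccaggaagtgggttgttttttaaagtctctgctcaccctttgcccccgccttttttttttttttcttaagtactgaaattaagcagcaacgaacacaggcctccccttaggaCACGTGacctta

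These stretches differ in base composition. The RefSeq window of Gtf2i held 63.2% G and C with 25 CpG dinucleotides and that of Plekhb2 55.6% with 10. The windows of Sh3bgrl and Arhgap15 held 42.4% with 7 CpG dinucleotides and 38.4% with 4. Plekhb2 and Arhgap15 each had another RefSeq window, not printed, with 58.8% and 15 for Plekhb2 and 42.8% and 7 for Arhgap15. The median of all 32851 mouse windows of this length was 52.4% with 6, and quartiles of 45.2% and 61.2% for G and C. Gtf2i had 2 GC boxes (GGGCGG), 170 and 59 bases before its RefSeq start, a motif that 32.7% of all windows held on either strand. Arhgap15 had an E-box (CACGTG) 12 bases before its start, a motif in 6.02% of all windows. In Sh3bgrl a composite element of C/EBP and ATF (TGATGNAA, in 3.45% of windows) began 46 bases before the RefSeq start and ran into the deposited gene. An ETS motif (CCGGAAG, in 6.91%) lay 26 bases before the RefSeq start on the other strand. The last 42 bases of that window lie within the deposited gene, so neither match is marked in the stretch shown. Fam129a, listed as Niban1 in RefSeq, had a GC box 40 bases before its start, but 187 of the 250 bases of its window lie within the deposited gene, so it is not printed. The cAMP response element (TGACGTCA), forkhead (TGTTTAC), NF-kappaB and AP-1 (TGANTCA) motifs, searched on both strands, matched none of the 7 windows of the 5 genes and 1.55%, 3.17%, 4.65% and 6.75% of all windows. A match is a description of letters and not a binding site.

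Fam129a (ENSMUSG00000026483, mm10 chr1:151571186-151721939, plus strand) was higher in dDC Tregs of all 3 tissues. In spleen it was at 362.3, 303.1 and 352.6 CPM in dDC libraries, against 215.1, 234.2 and 201.6 CPM in ctr libraries. In thymus it was at 561.6 and 438.4 CPM in dDC libraries and at 305.7, 248.2 and 234.5 CPM in ctr libraries. Peritoneal libraries had 357.0 and 368.8 CPM in dDC and 201.8 and 230.2 CPM in ctr mice. The dDC and ctr ranges were separate in each tissue, and the thymus dDC libraries were the highest of all 15. The dDC minus ctr difference was 0.65 (SE 0.13) on the log2 scale in spleen, 0.93 (SE 0.15) in thymus and 0.75 (SE 0.16) in the peritoneal cavity. Ordered from high to low by mean, the groups were thymus dDC, peritoneal dDC, spleen dDC, thymus ctr, spleen ctr and peritoneal ctr. The ranges of peritoneal dDC and spleen dDC, of spleen dDC and thymus ctr, and of spleen ctr and peritoneal ctr overlapped, and the other neighbours in that order did not.

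Sh3bgrl (ENSMUSG00000031246, mm10 chrX:109095365-109197873, plus strand) was the gene with the highest level per length. In spleen it was at 443.1, 351.5 and 456.8 CPM in dDC libraries, against 223.8, 282.8 and 305.1 CPM in ctr libraries. In thymus it was at 377.3 and 401.3 CPM in dDC libraries and at 258.3, 249.0 and 227.3 CPM in ctr libraries. Peritoneal libraries had 608.5 and 516.9 CPM in dDC and 289.3 and 267.2 CPM in ctr mice. All 7 dDC libraries lay above all 8 ctr libraries, whatever their tissue. Spleen ctr overlapped both peritoneal ctr and thymus ctr, peritoneal ctr lay above thymus ctr, and both peritoneal dDC libraries lay above the other dDC libraries. The dDC minus ctr difference was 0.62 (SE 0.14) in spleen, 0.67 (SE 0.15) in thymus and 1.02 (SE 0.17) in the peritoneal cavity. From high to low the groups were peritoneal dDC, spleen dDC, thymus dDC, peritoneal ctr, spleen ctr and thymus ctr, and spleen dDC and thymus dDC overlapped.

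Plekhb2 (ENSMUSG00000026123, mm10 chr1:34849976-34879580, plus strand) was higher in dDC Tregs by the mean of each tissue and highest in the peritoneal dDC group. In the peritoneal cavity it was at 471.6 and 511.9 CPM in dDC libraries, against 233.1 and 175.6 CPM in ctr libraries. In spleen it was at 326.4, 286.5 and 258.7 CPM in dDC libraries and at 211.2, 198.3 and 227.6 CPM in ctr libraries. In thymus it was at 184.6 and 276.8 CPM in dDC libraries and at 198.1, 156.2 and 150.5 CPM in ctr libraries. The ranges were separate in the peritoneal cavity and in spleen and overlapped in thymus, where dDC replicate 1 lay below ctr replicate 1. The dDC minus ctr difference was 1.27 (SE 0.21) in the peritoneal cavity, 0.45 (SE 0.17) in spleen and 0.46 (SE 0.19) in thymus. From high to low the groups were peritoneal dDC, spleen dDC, thymus dDC, spleen ctr, peritoneal ctr and thymus ctr. Peritoneal dDC lay clear of the next group, and every later neighbour overlapped the one before it.

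Gtf2i (ENSMUSG00000060261, mm10 chr5:134237834-134314760, minus strand) was lower in dDC Tregs of all 3 tissues. In the peritoneal cavity it was at 126.6 and 104.7 CPM in dDC libraries, against 260.4 and 342.1 CPM in ctr libraries. In spleen it was at 138.9, 121.8 and 156.7 CPM in dDC libraries and at 177.5, 245.6 and 212.9 CPM in ctr libraries. In thymus it was at 133.0 and 161.1 CPM in dDC libraries and at 195.8, 181.3 and 194.4 CPM in ctr libraries. All 7 dDC libraries lay below all 8 ctr libraries, whatever their tissue. The dDC minus ctr difference was -1.38 (SE 0.20) in the peritoneal cavity, -0.61 (SE 0.16) in spleen and -0.37 (SE 0.18) in thymus. From low to high the groups were peritoneal dDC, spleen dDC, thymus dDC, thymus ctr, spleen ctr and peritoneal ctr. The tissues thus stood in opposite order in dDC and in ctr Tregs by their means. The 3 dDC groups overlapped from neighbour to neighbour, as did thymus ctr and spleen ctr, while peritoneal ctr lay clear.

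Arhgap15 (ENSMUSG00000049744, mm10 chr2:43748824-44395953, plus strand) was lower in dDC Tregs too, by most in spleen. In spleen it was at 277.4, 251.3 and 299.4 CPM in dDC libraries, against 571.7, 631.2 and 434.5 CPM in ctr libraries. In thymus it was at 298.0 and 254.3 CPM in dDC libraries and at 343.1, 417.0 and 359.4 CPM in ctr libraries. Peritoneal libraries had 482.4 and 334.4 CPM in dDC and 675.1 and 606.6 CPM in ctr mice. Ranges were separate within each tissue, but peritoneal dDC replicate 1 lay above every thymus ctr library and above spleen ctr replicate 3. The dDC minus ctr difference was -0.98 (SE 0.17) in spleen, -0.43 (SE 0.19) in thymus and -0.65 (SE 0.20) in the peritoneal cavity. From low to high the groups were spleen dDC, thymus dDC, thymus ctr, peritoneal dDC, spleen ctr and peritoneal ctr. Spleen dDC and thymus dDC had nearly equal means of 276.0 and 276.1 CPM, the step from thymus dDC to thymus ctr was clear, and all later neighbours overlapped.

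**Figure D1:**
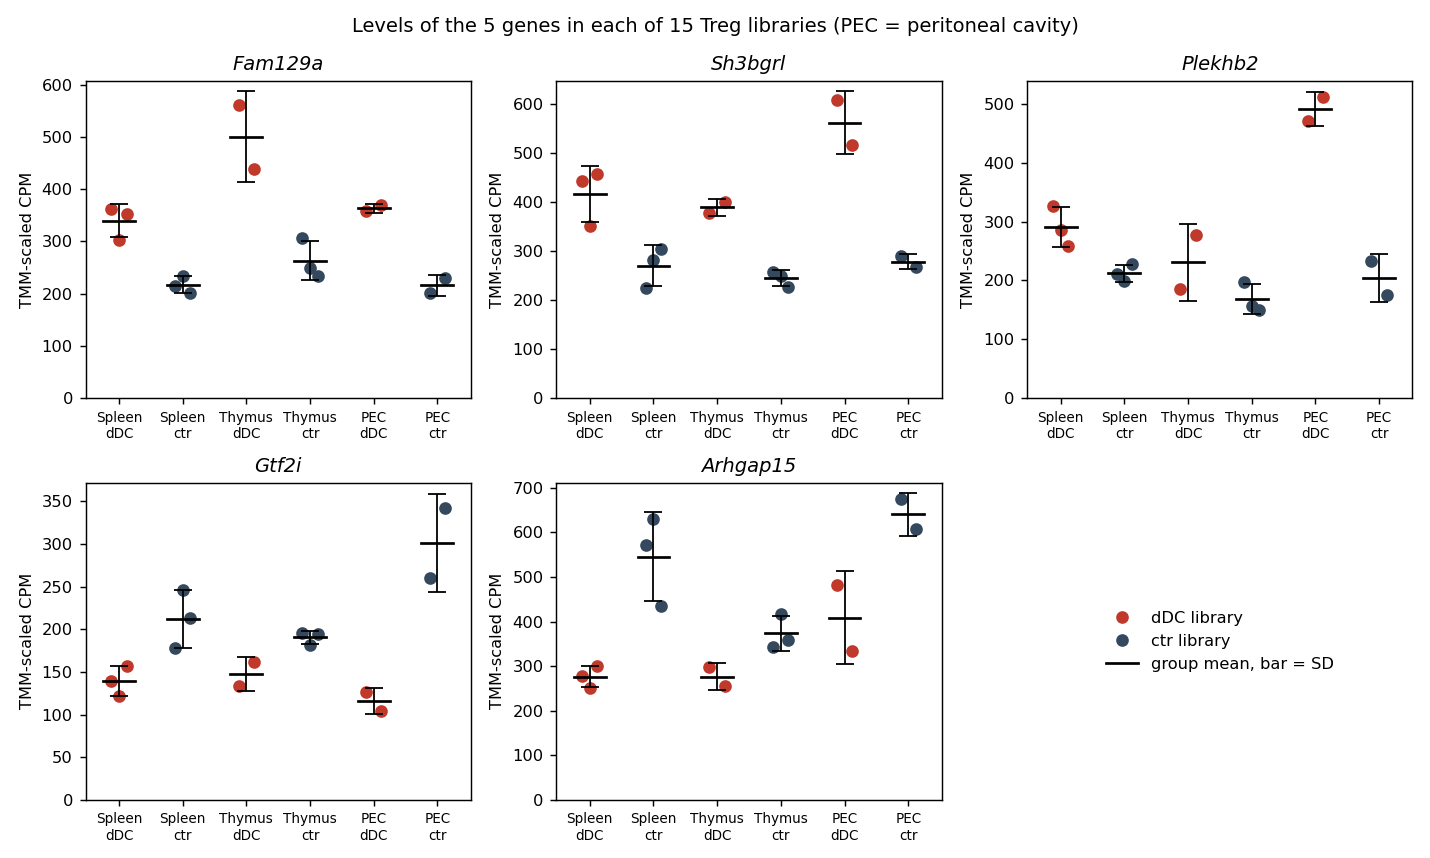
TMM-scaled CPM of the 5 genes (vertical axes from 0) in each of the 15 libraries, by tissue and genotype. Points are libraries, with dDC in red and ctr in dark blue, horizontal lines are group means and bars are 1 SD. For Sh3bgrl and Gtf2i no dDC library overlaps a ctr library of any tissue, and for Plekhb2 the 2 peritoneal dDC libraries, at 471.6 and 511.9 CPM, stand above all others. The genes were chosen because they differed between dDC and ctr in these libraries.

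Averaged over the tissues with equal weight, the dDC minus ctr difference was 0.77 (SE 0.09) for Fam129a, 0.77 (SE 0.09) for Sh3bgrl, 0.72 (SE 0.11) for Plekhb2, -0.79 (SE 0.10) for Gtf2i and -0.69 (SE 0.11) for Arhgap15. Over all 18423 genes, 14 passed in this average (0.076%) with an adjusted p under the threshold of 0.05, 9 of them up (0.0489%) and 5 down (0.0271%), and the 5 genes are among them by choice. Arhgap15 was the gene just inside the threshold, and E430014B02Rik (-2.06) and Smc4 (-0.41) were the genes just outside it. Within single tissues 0, 0 and 1 of all genes passed in spleen (0%), thymus (0%) and the peritoneal cavity (0.00543%), and the 1 was none of these 5. Separate dDC and ctr ranges were found for 5 of the 5 genes in spleen, 4 in thymus and 5 in the peritoneal cavity. Of all genes 10.1% had separate ranges in spleen (4.94% up, 5.19% down), 19.4% in thymus (9.06% up, 10.3% down) and 34.1% in the peritoneal cavity (18.7% up, 15.4% down). Ranges were separate in all 3 tissues and upward for 0.331% of all genes and downward for 0.244%. Nothing is read from these counts, since the same contrast chose the genes. The same holds for Sh3bgrl and Gtf2i, where all dDC libraries lay apart from all ctr libraries. The share of all genes with that pattern was not counted.

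In spleen and thymus alone the average was 0.79 for Fam129a, 0.65 for Sh3bgrl and -0.71 for Arhgap15, close to the value with the peritoneal cavity. For Plekhb2 and Gtf2i it was 0.45 and -0.49, nearer to 0 than the value with the peritoneal cavity. The summed level of the 7 Treg markers was higher in dDC in spleen and the peritoneal cavity, while in thymus dDC lay within the ctr range. Of the 7, 4 had an average dDC minus ctr value above 0 and 1, Nrp1, was called (0.62, SE 0.06, edgeR adjusted p = 0.00293). In spleen the Nrp1 mean alone was 1240 CPM in dDC and 752 CPM in ctr libraries, so the sum is no measure of Treg content. The sum was 4014 to 4161 CPM in dDC and 3554 to 3613 CPM in ctr spleen libraries, and 4264 to 4482 CPM in dDC and 3232 to 3304 CPM in ctr peritoneal libraries. In thymus it was 5309 to 5312 CPM in dDC and 4860 to 5876 CPM in ctr libraries. The part of this in the values of the 5 genes was not tested. Macrophage markers overlapped between the genotypes, with summed levels of 106.7 to 358.6 CPM in dDC and 86.6 to 157.1 CPM in ctr spleen libraries and of 153.0 to 258.5 CPM in dDC and 58.2 to 1607 CPM in ctr peritoneal libraries. The sums of 4 other lists were separate between the genotypes in 1 tissue each, and those of B cell, NK cell and developing thymocyte markers overlapped in all 3. The 7 dendritic cell markers summed to 25.5 to 35.9 CPM in dDC and 12.7 to 18.4 CPM in ctr spleen libraries, where each library had 4 to 6 of them present. The 8 erythroid markers summed to 0.883 to 1.75 CPM in dDC and 3.16 to 398.1 CPM in ctr thymus libraries, with Klf1 at 0 in all 5. In the peritoneal cavity the 6 stromal or epithelial markers summed to 9.57 to 39.0 CPM in dDC and 2.93 to 8.10 CPM in ctr libraries, and the 6 T cell markers to 5977 to 6754 CPM in dDC and 4659 to 5955 CPM in ctr libraries. The part of these in the values of the 5 genes was not tested either. Without peritoneal ctr replicate 2 the average over tissues was 0.81 for Fam129a, 0.75 for Sh3bgrl, 0.66 for Plekhb2, -0.72 for Gtf2i and -0.71 for Arhgap15.

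**Figure D2:**
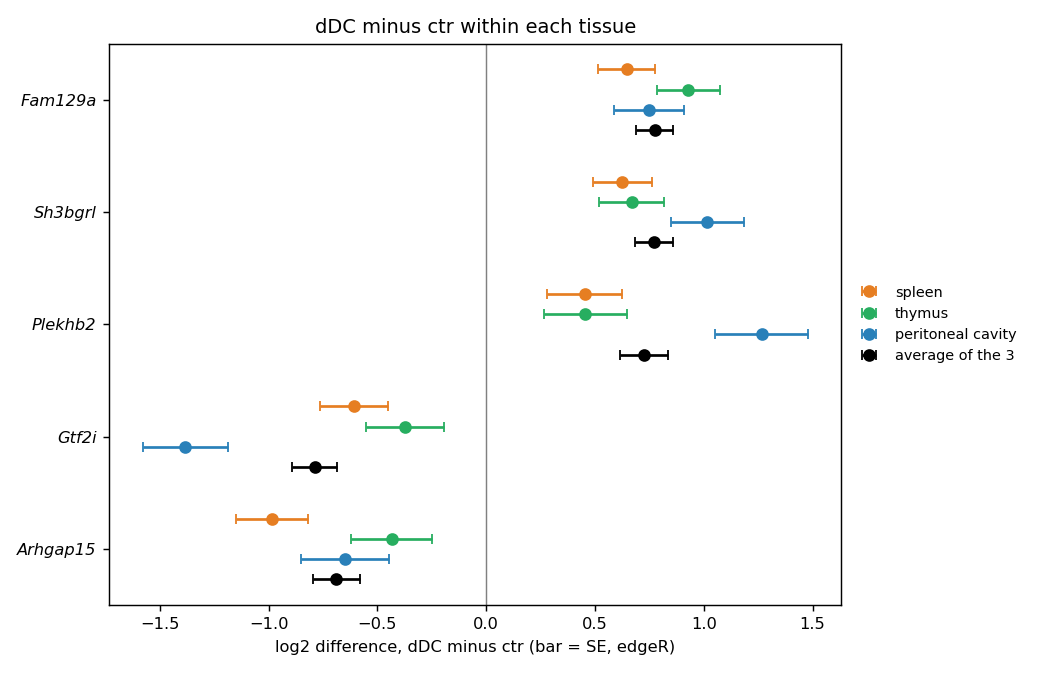
Difference between dDC and ctr on the log2 scale (horizontal axis) for each of the 5 genes, within each tissue and as the average of the 3. Points are edgeR estimates and bars are 1 SE. In the peritoneal cavity Plekhb2 (1.27) and Gtf2i (-1.38) lie farthest from 0, whereas the Fam129a values of the 3 tissues lie between 0.65 and 0.93.

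The size of the dDC difference was compared between tissues, since the average does not by itself fix how it is shared among them. The choice still bears on this comparison. In spleen and thymus alone Plekhb2 and Gtf2i did not pass in dDC minus ctr (edgeR adjusted p = 0.573 and 0.497). Their peritoneal differences thus helped to choose them, and a larger difference there is partly built in. With edgeR and p adjusted over all genes, 0 of the 5 genes passed in any of the 3 comparisons between tissues, and neither did any other gene (0%, against 932, 900 and 1053 genes at an unadjusted p under 0.05 for thymus minus spleen, PEC minus spleen and PEC minus thymus). For Gtf2i the peritoneal difference was lower than that in thymus by a log2 value of -1.01 (SE 0.26, edgeR adjusted p = 0.84, unadjusted 0.00233) and lower than that in spleen by -0.77 (SE 0.25, edgeR adjusted p = 0.998, unadjusted 0.00938). For Plekhb2 the peritoneal difference exceeded that in thymus by 0.81 (SE 0.28, edgeR adjusted p = 0.84) and that in spleen by 0.81 (SE 0.27, edgeR adjusted p = 0.998). For Arhgap15 the thymus difference lay 0.55 above that in spleen (SE 0.25, edgeR adjusted p = 0.965), nearer to 0. The values for Sh3bgrl and Fam129a were smaller, between -0.18 and 0.39. At an unadjusted p under 0.05 there were 1, 2 and 2 of the 5 genes in the 3 comparisons. DESeq2 called Gtf2i for PEC minus thymus (adjusted p = 0.0481), beside 115 of all genes, and no other of the 5 in any comparison. Limma called none of the 5. A call was thus not reached with edgeR, which does not show that the differences were alike.

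Differences between tissues, averaged over dDC and ctr, were not the measure that chose the genes and were tested. Both measures use the same peritoneal libraries, and Plekhb2 was highest in those of dDC and Arhgap15 in those of ctr mice. Neither result is therefore independent of the choice. Plekhb2 and Arhgap15 were higher in Tregs of the peritoneal cavity than in those of the thymus, by a log2 value of 0.69 (SE 0.14, edgeR adjusted p = 0.014) and 0.67 (SE 0.14, edgeR adjusted p = 0.0124). These 2 of 5 genes stand beside 5.61% of all genes tested in that comparison, 3.03% higher and 2.58% lower in the peritoneal cavity. For Fam129a the value was -0.37 (SE 0.11, edgeR adjusted p = 0.0781), for Sh3bgrl 0.36 (SE 0.11, edgeR adjusted p = 0.0967) and for Gtf2i 0.16 (SE 0.13, edgeR adjusted p = 0.608). DESeq2 called Fam129a and Sh3bgrl as well (adjusted p = 0.028 and 0.0274), beside 2028 of all genes.

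The tissue difference was also computed within each genotype. For Plekhb2 the peritoneal cavity minus thymus value was 1.09 (SE 0.21, edgeR adjusted p = 0.0276) between the dDC groups and 0.28 (SE 0.19, edgeR adjusted p = 0.549) between the ctr groups, where the ranges overlapped. For Arhgap15 it was 0.56 (SE 0.20, edgeR adjusted p = 0.272) between the dDC groups and 0.78 (SE 0.18, edgeR adjusted p = 0.0453) between the ctr groups. For Gtf2i the sign differed, with -0.35 between the dDC groups and 0.66 between the ctr groups (edgeR adjusted p = 0.547 and 0.0769). The test of each of these differences between genotypes is the comparison of dDC differences between tissues given above, which none of the 5 passed.

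Both calls were lost without single dDC libraries. The Arhgap15 value was 0.53 without peritoneal dDC replicate 1 (edgeR adjusted p = 0.0584). The Plekhb2 value was 0.66 without peritoneal dDC replicate 2 (edgeR adjusted p = 0.0588) and 0.56 without thymus dDC replicate 1 (edgeR adjusted p = 0.063). Over all 15 libraries left out in turn, adjusted p lay between 0.00716 and 0.0584 for Arhgap15 and between 0.00627 and 0.063 for Plekhb2. Without peritoneal ctr replicate 2, the library high in macrophage markers, the values were 0.71 for Arhgap15 and 0.78 for Plekhb2 (edgeR adjusted p = 0.0296 and 0.0158).

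Markers of other cells moved with tissue. The 10 B cell markers summed to 1137 to 2384 CPM in the 4 peritoneal libraries, each with all 10 present, and to 42.9 to 89.4 CPM in the 5 thymus libraries, with 5 to 9 present. Pax5, a factor that defines B cells, was at 0 in both dDC thymus libraries and in ctr replicate 1. Macrophage markers summed to 58.2 to 1607 CPM in the peritoneal cavity and to 1.26 to 27.6 CPM in thymus. The 8 erythroid markers summed to 2395 to 8051 CPM in spleen, to at most 398.1 CPM in thymus and to at most 391.9 CPM in the peritoneal cavity. The part of such cells in the tissue differences of the 5 genes, and of the gene lists that follow, was not tested.

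Between thymus and spleen 0 of the 5 genes passed with edgeR, beside 1.32% of all genes (0.418% up and 0.901% down). There 3 of the 5 had an unadjusted p under 0.05, as did 2313 of all 18423 genes. DESeq2 called 1 of the 5, Fam129a, beside 972 of all genes, and limma none of the 5. Fam129a was nearest, with 0.42 in thymus minus spleen (SE 0.10, edgeR adjusted p = 0.0691), and passed without thymus dDC replicate 2 at 0.51 (edgeR adjusted p = 0.0423). Plekhb2 had -0.33, Arhgap15 -0.27, Sh3bgrl -0.12 and Gtf2i -0.04 (edgeR adjusted p = 0.301, 0.391, 0.724 and 0.966). Between the peritoneal cavity and spleen 0 of the 5 passed with edgeR, beside 2.89% of all genes (1.23% up and 1.66% down). Here 3 of the 5 had an unadjusted p under 0.05, as did 2650 of all 18423 genes. DESeq2 called 1 of the 5, Arhgap15 (adjusted p = 0.048), beside 1240 of all genes, and limma none of the 5. Arhgap15 had 0.40 in PEC minus spleen, Plekhb2 0.35, Sh3bgrl 0.24, Gtf2i 0.12 and Fam129a 0.05 (edgeR adjusted p = 0.161, 0.248, 0.337, 0.757 and 0.932).

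**Figure D3:**
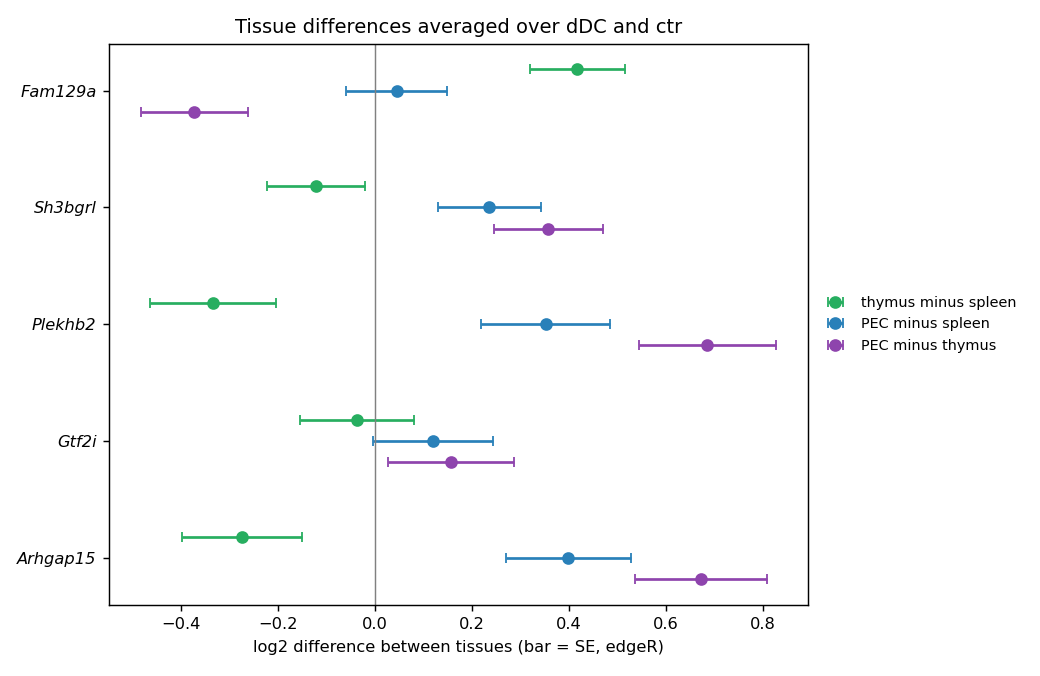
Difference between tissues on the log2 scale (horizontal axis), averaged over dDC and ctr, for each of the 5 genes. Points are edgeR estimates and bars are 1 SE. Plekhb2 (0.69) and Arhgap15 (0.67) were called between the peritoneal cavity and thymus, and Fam129a is the gene with a value above 0 for thymus minus spleen.

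Each of the 5 genes had at least 1884 reads in every library, and the biological coefficient of variation between replicate libraries was 0.14 for Fam129a, 0.142 for Sh3bgrl, 0.168 for Plekhb2, 0.158 for Gtf2i and 0.163 for Arhgap15. The 2034 genes with a mean of 100 to 600 CPM had a median of 0.184 and quartiles of 0.157 and 0.218, and all 5 lay below that median. Nothing is read from this, since a choice by the dDC minus ctr test favours genes with a low spread. The median over all genes tested was 0.551.

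Levels can be set against each other between genes only per length. In RPKM (CPM divided by gene length in kilobases, with exon lengths of the annotation), Sh3bgrl was highest of the 5 in each group, at 126.5 ± 17.4 in dDC and 82.0 ± 12.7 in ctr spleen libraries (SD, n = 3 each). It reached 170.6 ± 19.6 RPKM in peritoneal dDC libraries (SD, n = 2), where 97.7% of the tested genes had a lower mean. By group means Gtf2i was lowest of the 5 in each group other than peritoneal ctr, at 13.6 ± 1.71 RPKM in dDC and 20.8 ± 3.34 RPKM in ctr spleen libraries (SD, n = 3 each). In the peritoneal cavity Gtf2i was at 11.3 ± 1.52 RPKM in dDC and 29.5 ± 5.66 RPKM in ctr libraries (SD, n = 2 each), where Plekhb2 was lower in ctr at 25.6 ± 5.09. In that ctr group Fam129a, at 29.3 ± 2.72 RPKM, was within the spread of Gtf2i. Fam129a, Plekhb2 and Arhgap15 had group means of 21.1 to 72.7 RPKM. By group means Arhgap15 was below Fam129a in the 3 dDC groups, at 31.3 and 46.0 RPKM in spleen dDC, and above it in the 3 ctr groups, at 61.9 and 29.4 RPKM in spleen ctr. In the peritoneal dDC group, at 46.3 ± 11.9 and 49.2 ± 1.13 RPKM (SD, n = 2 each), they lay within their spread.

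Across the 15 libraries the 5 genes formed related pairs. Pearson's r of log2 CPM was 0.867 between Sh3bgrl and Plekhb2, 0.688 between Sh3bgrl and Fam129a and 0.407 between Plekhb2 and Fam129a. It was 0.703 between Gtf2i and Arhgap15. Pairs of a higher and a lower gene had values between -0.721 (Fam129a and Arhgap15) and -0.251 (Plekhb2 and Arhgap15). The choice of the genes sets the sign of these values, since the libraries share genotype and tissue. In the deviations from the 6 group means, which take both away, r was 0.24 between Sh3bgrl and Plekhb2 and 0.171 between Gtf2i and Arhgap15. The largest value there was 0.598, between Sh3bgrl and Gtf2i, which go in opposite directions between dDC and ctr, and the lowest was -0.414, between Plekhb2 and Arhgap15.

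Of 7187 genes with a mean of at least 20 CPM, the 5 most like Fam129a over the 15 libraries by Pearson's r were Nrp1 (0.840), Plcb4 (0.839), Gpx4 (0.821), Snw1 (0.780) and Cxcr4 (0.770). For Nrp1 the deviations from group means had an r of -0.266 with Fam129a, and for Snw1 0.659. The 5 most like Sh3bgrl were Ggh (0.891), Itgb1 (0.878), Plekhb2 (0.867), Anxa6 (0.860) and Cldnd1 (0.841), and those most like Plekhb2 were Ggh (0.911), Prr13 (0.910), Gm13422 (0.906), S100a10 (0.905) and Lgals1 (0.890). Ggh was thus first for both, and its deviations had an r of 0.640 with Sh3bgrl and 0.652 with Plekhb2. The 5 most like Gtf2i were Gm14085 (0.864), Gm15708 (0.811), Satb1 (0.800), Klf7 (0.788) and Gbp2b (0.786). Those most like Arhgap15 were Foxp1 (0.882), Pex11g (0.879), Gm11400 (0.848), Dph5 (0.827) and Spice1 (0.824). By rank correlation 3, 3, 1, 2 and 2 of these 5 stayed among the first 5 for Fam129a, Sh3bgrl, Plekhb2, Gtf2i and Arhgap15. The libraries share tissue, genotype and sequencing, so these values describe patterns alone.

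**Figure D4:**
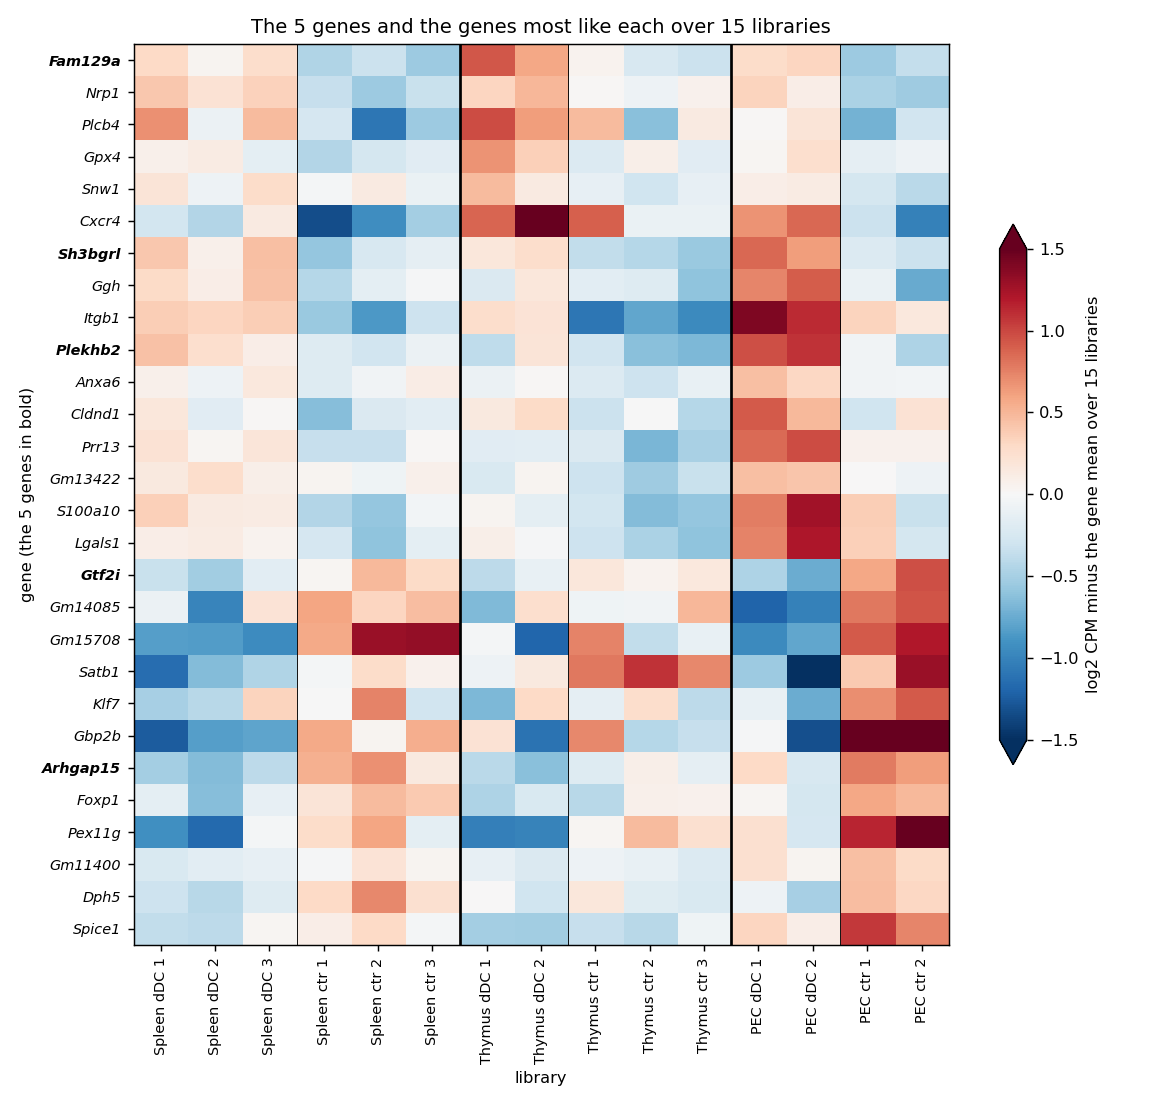
Log2 CPM minus the mean of the gene over the 15 libraries (colour, ending at -1.5 and 1.5) for the 5 genes, in bold, and the 5 genes most like each, with libraries in columns by tissue and genotype, dDC before ctr. Rows near Sh3bgrl and Plekhb2 are highest in the 2 peritoneal dDC columns, and rows near Gtf2i and Arhgap15 are highest in ctr columns.

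The closest relatives of Fam129a, Sh3bgrl, Plekhb2 and Gtf2i did not pass in the dDC minus ctr average, and most were scarce in Tregs. Beside Fam129a, the Niban relatives Fam129b (-0.13) and Fam129c (-0.09) had means under 10 CPM in every group (edgeR adjusted p = 1 for both). Beside Sh3bgrl, the relative Sh3bgrl3 was at 514.0 CPM in dDC and 484.0 CPM in ctr spleen, with 0.17 (SE 0.06, edgeR adjusted p = 0.432), and Sh3bgr was below 1 CPM on average in every group. Plekhb1, the only relative of Plekhb2 on the list, was at 2.60 CPM or less on average in every group. Of the TFII-I family, Gtf2ird1 had -1.19 (SE 0.65) and Gtf2ird2 -0.64 (SE 0.41) in the direction of Gtf2i, with means under 20 CPM (edgeR adjusted p = 0.614 and 0.693).

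Of 26 genes of Rac and Cdc42 signalling, in which Arhgap15 acts on Rac, 0 passed in dDC minus ctr with edgeR, beside 0.076% of all genes. An unadjusted p under 0.05 was found for 2 of the 26, against 1715 of all 18423 genes. The median difference of the list was 0.03, against -0.02 for all genes. Cdc42, a small GTPase of cell polarity, had 0.30 (SE 0.08, edgeR adjusted p = 0.252), and Arhgdia, which holds such GTPases inactive, had 0.23 (SE 0.10, edgeR adjusted p = 0.522). Between the peritoneal cavity and thymus, 4 of the 26 genes of this list passed, 3 up and 1 down, beside 3.03% up and 2.58% down of all genes. Cdc42 rose (0.74, adjusted p = 0.0014), as did Dock2, an activator of Rac (0.75, adjusted p = 0.0014), and Cyfip2, a part of the complex through which Rac starts actin branches (0.51, adjusted p = 0.0114). Vav1, an activator of Rac in antigen receptor signalling, fell (-0.83, adjusted p = 0.014). The median of the list was 0.19 there and that of all genes -0.000695. These adjusted p-values are edgeR's. The part of B cells and macrophages, whose markers differed between these tissues, in the values of this list was not tested.

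Of 24 tested genes of the integrated stress response, the program known to raise Niban, 0 passed in dDC minus ctr with edgeR. Unadjusted p was under 0.05 for 3 of them, against 1715 of all 18423 genes. In this list 13 values lay above 0, with a median of 0.02. The gene with the smallest p was Asns, which makes asparagine (edgeR adjusted p = 0.3), at means of 6.40 CPM in dDC and 0.0374 CPM in ctr thymus and of 5.95 to 8.03 CPM in the other groups. Aars, an enzyme that charges transfer RNA with alanine, had 0.52 (SE 0.20, edgeR adjusted p = 0.447). Of 18 genes of the unfolded protein response 0 passed (1 at an unadjusted p under 0.05), with 12 values above 0 and a median of 0.11. The chaperone genes Hsp90b1 and Calr had 0.35 (SE 0.12, edgeR adjusted p = 0.413) and 0.18 (SE 0.10, edgeR adjusted p = 0.608). Between the peritoneal cavity and thymus, where 5.61% of all genes passed (3.03% up and 2.58% down), 3 of the 24 genes of the integrated stress response did. They were Asns up (edgeR adjusted p = 0.026) and Shmt2 (-0.83, edgeR adjusted p = 0.02) and Slc3a2 (-0.60, edgeR adjusted p = 0.0352) down. In the unfolded protein response 0 of the 18 passed, and 4 had an unadjusted p under 0.05, as did 3353 of all 18423 genes.

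Of 19 genes of the thioredoxin and glutaredoxin system, whose fold Sh3bgrl shares, 0 passed in dDC minus ctr with edgeR. The median was 0.21, 16 values lay above 0 and 7 had an unadjusted p under 0.05, against -0.02 for the median of all genes and 1715 of all 18423 genes at that p. Prdx1, which breaks down peroxide, had 0.37 (SE 0.08, edgeR adjusted p = 0.156), at 295.0 CPM in dDC and 272.0 CPM in ctr spleen. Glrx, for glutaredoxin, had 0.65 (SE 0.17, edgeR adjusted p = 0.238), at 165.0 CPM in dDC and 124.0 CPM in ctr spleen. In the peritoneal cavity minus thymus comparison 1 of the 19 genes passed, Prdx6 (0.44, edgeR adjusted p = 0.0378), beside 5.61% of all genes, which is a like share.

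Of 20 genes of recycling endosomes, where evectin-2 acts, 0 passed in dDC minus ctr with edgeR, with 16 values above 0 and a median of 0.15. Unadjusted p was under 0.05 for 2 of them, against 1715 of all 18423 genes. Vps35, a part of the retromer complex, had 0.32 (SE 0.15, edgeR adjusted p = 0.533), and the small GTPase gene Rab4a, below 20 CPM on average in every group, had 1.77 (SE 0.75, edgeR adjusted p = 0.505). Between the peritoneal cavity and thymus, where Plekhb2 and 5.61% of all genes passed, 0 of the list did, while 15 values lay above 0 and the median was 0.38. There 5 of the list and 3353 of all 18423 genes had an unadjusted p under 0.05. The nearest were Vamp3, a vesicle fusion protein (0.69, edgeR adjusted p = 0.0654), and Rab8a (0.56, edgeR adjusted p = 0.0798).

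Of 12 tested genes of TFII-I partners 0 passed in dDC minus ctr with edgeR, with 4 values above 0 and a median of -0.06. Unadjusted p was under 0.05 for 1 of them, against 1715 of all 18423 genes. The nearest were Btk, a kinase of B cells that phosphorylates TFII-I (edgeR adjusted p = 0.452), and Fos, part of the AP-1 factor (-0.92, SE 0.60, edgeR adjusted p = 0.702). Btk was at 0 CPM in dDC and 2.49 CPM in ctr thymus libraries on average, so no fold is given for it. Between the peritoneal cavity and thymus 3 of the 12 passed, beside 5.61% of all genes. They were Btk up (edgeR adjusted p = 0.00802), beside the B cell markers given above, and the histone deacetylase gene Hdac1 (-0.75, edgeR adjusted p = 0.00497) and Plcg1, a phospholipase of antigen receptor signalling (-0.63, edgeR adjusted p = 0.0315), down. Of the 18 tested genes of the Gtf2i region on chromosome 5, 0 passed (2 at an unadjusted p under 0.05), with 7 values above 0 and a median of -0.15. Clip2, which binds microtubules, had 1.64 (SE 0.65, edgeR adjusted p = 0.468) at means under 4 CPM, and Abhd11 had -0.35 (SE 0.15, edgeR adjusted p = 0.514). Between the peritoneal cavity and thymus 0 of the 18 genes of the region were up (3.03% of all genes) and 2 were down (2.58% of all genes), Stx1a (-2.36, edgeR adjusted p = 0.0101) and Gtf2ird1 (edgeR adjusted p = 0.0104), the second at 0.244 CPM in dDC and 0.506 CPM in ctr peritoneal libraries and at 9.51 CPM in dDC and 13.8 CPM in ctr thymus libraries.

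Over all these lists 0 genes other than the 5 passed in dDC minus ctr with edgeR or limma. DESeq2 called 4 of the 165 list genes tested and 384 of all 18423 genes, which is a like share. The 165 include the genes of a list whose result is not reported here. The 4 were Prdx1 (0.36, adjusted p = 0.00426), Glrx (0.64, adjusted p = 0.0163), Cdc42 (0.29, adjusted p = 0.0294) and Asns (adjusted p = 0.0312).

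**Figure D5:**
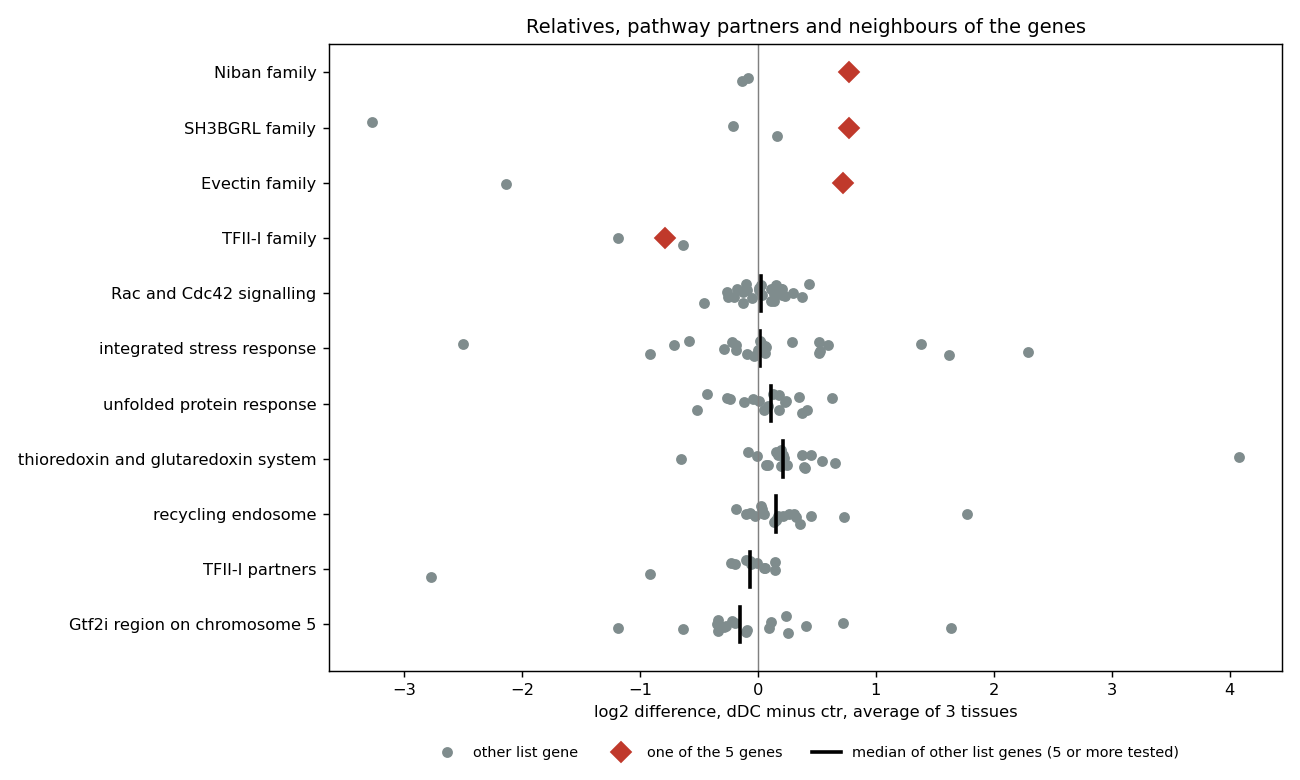
Average dDC minus ctr difference on the log2 scale (horizontal axis) of relatives, pathway partners and neighbours of the 5 genes, 1 row per list. Grey points are the other tested genes of a list, red diamonds are Fam129a, Sh3bgrl, Plekhb2 and Gtf2i beside their relatives, and black ticks are medians of lists with 5 or more tested genes. The diamonds were chosen on this axis, and the ticks lie between -0.15 and 0.21.

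Genes next to the 5 in the genome were read as well. On either side, Fam129a had Gm19503 (-0.08) and 2810414N06Rik (-0.43), Sh3bgrl had Hmgn5 (0.37) and Gm4784 (0.02), and Plekhb2 had Fam168b (0.11) and Gm37670 (0.11). Gtf2i had Ncf1 (-0.20) and Gtf2ird1 (-1.19), and Arhgap15 had Kynu (-0.44) and Gtdc1 (-0.33). None of these passed in dDC minus ctr with edgeR, and the smallest adjusted p was 0.413, for Hmgn5, which binds nucleosomes and lies 82.0 kb from Sh3bgrl.

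Genes that overlap the 5 could share reads with them, since the libraries do not mark the strand. Within Gtf2i lies the model Gm43481 (mm10 chr5:134267065-134270736, minus strand, in an intron), with 3910 reads in all libraries and a dDC minus ctr difference of -1.38 (SE 0.35, edgeR adjusted p = 0.225), in the direction of Gtf2i. Gm43480, also in an intron of Gtf2i, had 204 reads (-0.12). Arhgap15os, on the strand opposite to Arhgap15 with 73 exon bases in common, had 150 reads (-1.87). Sh3bgrl overlaps Gm6377 on its own strand by 229 exon bases, with 481 reads (0.38), and on the opposite strand Gm26415 and Gm14869, with 269 and 178 reads and no exon bases in common. Fam129a and Plekhb2 overlap no tested gene. Each of the overlapping genes had at most 3910 reads over the 15 libraries together, whereas each of the 5 genes had 1884 or more in every single library.

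Stretches of 50 bases that also occur in another gene, where the authors' alignment could divide reads, were few. Of the annotated transcript sequence, Fam129a shared 0% of its stretches, Gtf2i 0.178%, Arhgap15 0.352%, Plekhb2 0.464% and Sh3bgrl 6.22%, the last mostly with Gm6377 (5.54%). Gtf2i shared 0.0374% with its relative Gtf2ird2.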

How the data were processed

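Messenger RNA of sorted Tregs was measured in 15 libraries of 6 groups, and each column of the table was tied to its group through the label of its library. Per the labels' protocols, cDNA was made with a poly-dT primer and template switching, and libraries with a chemistry that does not mark the strand. Since they name no molecular identifiers, a read need not be an independent molecule. Reads were handled with bcl2fastq 2.19.1, the aligner GSNAP and the counter featureCounts 1.6.0 on mm10, per the submitters' processing notes. How multimapping reads were treated is not given in the sources used here.

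A single table of raw counts, whole reads for each gene in each library, was deposited. Of 45798 features, 92 were spike-in sequences, with at most 6 reads in a library, and were left out. Symbols were found for 45143 of 45706 gene identifiers (98.77%). With filterByExpr, TMM factors and a robust quasi-likelihood fit in edgeR 4.0.16 (R 4.3.3), 1 mean was fitted per group with 9 residual degrees of freedom. The 18423 genes kept held 99.932% of the counts. Tests were two-sided, with Benjamini-Hochberg adjustment over all these genes. CPM use TMM-scaled library sizes, and correlations used log2 CPM with a prior count of 2.

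The 5 genes and the gene lists were chosen with earlier results of these data known. Named beside the 5 genes were the 5 genes most like each by Pearson's r, the genes of each list past the threshold in the comparison spoken of (at most 4, or else the 2 with the smallest p), and the nearest and overlapping genes. The result of 1 gene list is not reported here. The 4 genes called by DESeq2 were named after their values were seen. Alternatives were RLE size factors, no filter, limma 3.58.1 with voom, DESeq2 1.42.0, each library left out, and neighbouring library numbers as a replicate block. The scripts were tested on simulated data.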

Additional observations from a re-analysis of the deposited data

How the results depend on the processing

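The dDC minus ctr values of the 5 genes kept their sign under every alternative run. That is no support, since the genes were chosen on this contrast of these libraries. The threshold was not always met. With the replicate block no gene passed, and without spleen dDC replicate 2 Arhgap15 had an edgeR adjusted p of 0.119. With spleen and thymus only, the value was 0.4537 for Plekhb2 and -0.4903 for Gtf2i. DESeq2 called 1 of the 5 genes for thymus minus spleen, 1 for PEC minus spleen and 4 for PEC minus thymus. It called 1 for the dDC difference in PEC minus that in thymus, and 4 of the 165 list genes tested in dDC minus ctr. For PEC minus thymus 1 of the 5 passed between the dDC groups only and 1 between the ctr groups only. With each library left out the count of the 5 ran from 1 to 3 for PEC minus thymus and from 0 to 1 for thymus minus spleen, where Fam129a passed without thymus dDC replicate 2. Without that library Fam129a also passed for PEC minus thymus (-0.46, edgeR adjusted p = 0.0445). By rank correlation 3, 3, 1, 2 and 2 of the 5 most alike genes were kept for Fam129a, Sh3bgrl, Plekhb2, Gtf2i and Arhgap15.

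Signs turned only for values that passed in no setting run. For Plekhb2 the dDC difference in thymus minus that in spleen was -0.00419 without the filter, -0.0598 with the replicate block and -0.316 to 0.266 with a library left out. With a library left out, that of Sh3bgrl ran from -0.0551 to 0.171, the dDC difference in PEC minus that in thymus from -0.509 to 0.0257 for Arhgap15 and from -0.365 to 0.00818 for Fam129a, Fam129a in PEC minus spleen from -0.00328 to 0.0897, and Gtf2i in thymus minus spleen from -0.106 to 0.0269. The cause was not tested.

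Over all genes, dDC minus ctr gave 14 calls, 384 with DESeq2, 39 without the filter and 0 with the replicate block of neighbouring library numbers, and 5 to 110 with a library left out. PEC minus thymus gave 1034 and 2028 with DESeq2, PEC minus spleen 533 and 1240, and thymus minus spleen 243 and 972. DESeq2 gave 36, 50 and 115 calls for the differences of dDC differences (thymus and spleen, PEC and spleen, PEC and thymus), where edgeR gave 0. The labels do not say that library numbers pair the samples, and deviations of paired libraries correlated at -0.0054 to 0.102. These correlations cannot decide on pairing, since groups are small. In the peritoneal groups of 2 libraries the deviations mirror each other, and both pairs gave 0.102. The block left 4 residual degrees of freedom, gave dDC minus ctr values of 0.76, 0.77, 0.71, -0.80 and -0.66 for Fam129a, Sh3bgrl, Plekhb2, Gtf2i and Arhgap15, and allowed no tissue comparison, since each block lies in 1 tissue. Each of the 5 genes had at least 1884 reads per library.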
